A study of Mus musculus with 56 samples.

Results

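The genes described here are the nuclear genes for proteins of the mitochondrial ribosome, the mitoribosome, in mouse CD4 T cells. They are the 69 symbols that start with Mrpl or Mrps and a digit and that reached at least 10 counts in each of 2 deposited count tables, among 77 matching symbols. The tables hold 19791 symbols in the first and 24421 in the second. The 8 left out for low counts were Mrpl2, Mrpl17, Mrpl21, Mrpl22, Mrpl23, Mrpl52, Mrps15 and Mrps18c. Of the 69, 44 code for proteins of the large subunit, 24 for proteins of the small subunit, and Mrps36 belongs to neither. A further filter on low counts left 64 of the 69 for testing in experiment 2 and 62 in experiment 1. Not tested were Mrpl11, Mrpl35, Mrpl41, Mrpl57 and Mrps18b in experiment 2, and Mrpl30, Mrpl39, Mrpl47, Mrps21, Mrps31, Mrps35 and Mrps36 in experiment 1.

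Both experiments used spleen CD4 T cells of C57BL/6 mice, cultured as naive cells on beads coated with CD3 and CD28 antibodies, with no cytokine added. The study's design sets the starting concentration of the cells against their early memory differentiation. In experiment 2, cells started at a high concentration of 1000000 per ml or a low one of 62500 per ml, in 1 ml in 24-well plates, and CD4+ cells were sorted at 18, 30, 48 and 72 h. Further cells of experiment 2, started at 250000 per ml, were sorted at 48 and 72 h as CD62L-positive or CD62L-negative cells, both CD44 positive, and unstimulated naive cells (CD44 negative, CD62L positive, sorted) complete its 13 groups and 38 libraries. In experiment 1, cells started at 250000 per ml in 200 µl in 96-well plates were sorted by CD62L into positive and negative cells after 48 and 72 h. Its unstimulated mature cells (CD44 positive, CD62L negative) and naive cells (CD44 negative, CD62L positive) were enriched magnetically, which gives 6 groups and 18 libraries. CD62L is the lymph node homing receptor, which naive and central memory T cells carry. There are 3 libraries per group, and 2 for low-concentration cells at 72 h. The sources used here do not say whether libraries of a group came from separate mice or cultures, so p-values measure the spread between these libraries, which may be technical.

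Mitoribosomes translate the few mRNAs of mitochondrial DNA into core subunits of the respiratory chain and ATP synthase. All their proteins are coded in the nucleus, made in the cytosol and imported, while their rRNA is made inside mitochondria. Some of the proteins have counterparts in bacterial ribosomes, and others were added during the evolution of mitochondria. Of the large-subunit genes here, 25 are of the bacterial type and 19 are specific to mitochondria, against 14 and 10 of the small-subunit genes. The symbols do not always match the structure: Mrps18a and Mrps30 code for large-subunit proteins, and the product of Mrps36 has been reassigned, in human cells and yeast, to the 2-oxoglutarate dehydrogenase complex. T cells that leave quiescence enlarge their mitochondria and make more of the translation machinery of the organelle.

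Promoters of mitochondrial protein genes often hold sites for the nuclear respiratory factors NRF1 and NRF2, of which NRF2 (GABP) belongs to the ETS family. Of the 69 genes, 60 had a promoter of 300 bases (250 before and 50 after the start) in the RefSeq table of build GRCm38.p6, and both strands were searched. The NRF1 motif, searched as GCGC and TGCGC with 1 base of any kind between them, occurred in 20.0% of these genes, against 13.1% of the 7097 genes tested in experiment 2 that had a promoter and 5.19% of all 27018 genes with one. The ETS letters CCGGAAG occurred in 33.3%, against 23.5% and 9.93%, and the YY1 letters AAGATGG in 20.0%, against 9.07% and 7.28%. The E-box letters CACGTG, which MYC and related factors bind, occurred in 5.0%, against 12.6% and 8.09%, and the SP1 letters GGGCGG in 48.3%, against 71.0% and 38.2%. One or more of the NRF1, ETS and YY1 words stood in 61.7% of the genes, against 39.2% and 20.0%. Among genes that rose by 18 h this share was 61.7% of 47 promoters, and among tested genes that did not pass it was 62.5% of 8. Of 111 matches in these promoters, 1 pair of different words overlapped.

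The 6 promoters below were chosen to show the kinds of match beside genes with different behaviour. Mrpl12 lies at chr11:120484387-120484686 on the plus strand, Mrpl45 at chr11:97315466-97315765 on the plus strand and Mrpl3 at chr9:105053018-105053317 on the plus strand. Mrps22 lies at chr9:98601630-98601929 on the minus strand, Mrps6 at chr16:92058086-92058385 on the plus strand and Mrps26 at chr2:130563507-130563806 on the plus strand. Capitals mark every match to any of the 5 words on either strand, and each sequence reads 5′ to 3′ along the gene. Mrpl12 has 1 NRF1 word, Mrpl45 has 3, Mrpl3 has an ETS word, Mrps22 has an ETS and an SP1 word, and Mrps6 has 4 SP1 words. Mrps26, whose level did not pass the test at 18 h, carries 2 overlapping NRF1 words with an ETS and an SP1 word.
Mrpl12: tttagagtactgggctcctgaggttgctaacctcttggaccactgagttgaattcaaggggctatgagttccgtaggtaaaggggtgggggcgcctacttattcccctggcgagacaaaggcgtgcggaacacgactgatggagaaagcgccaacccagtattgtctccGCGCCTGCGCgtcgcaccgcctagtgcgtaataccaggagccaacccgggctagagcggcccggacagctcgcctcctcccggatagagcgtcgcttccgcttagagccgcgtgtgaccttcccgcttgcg
Mrpl45: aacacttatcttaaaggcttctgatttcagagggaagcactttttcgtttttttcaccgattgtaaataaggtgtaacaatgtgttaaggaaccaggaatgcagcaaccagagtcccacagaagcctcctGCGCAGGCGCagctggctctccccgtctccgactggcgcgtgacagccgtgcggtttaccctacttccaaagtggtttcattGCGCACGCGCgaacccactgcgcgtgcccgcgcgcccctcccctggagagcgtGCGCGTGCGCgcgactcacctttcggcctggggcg
Mrpl3: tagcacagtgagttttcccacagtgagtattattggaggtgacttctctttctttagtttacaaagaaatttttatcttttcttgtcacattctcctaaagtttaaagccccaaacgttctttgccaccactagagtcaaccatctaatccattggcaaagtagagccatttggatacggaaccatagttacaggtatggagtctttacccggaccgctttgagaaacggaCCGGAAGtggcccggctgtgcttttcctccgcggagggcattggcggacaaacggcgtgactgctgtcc
Mrps22: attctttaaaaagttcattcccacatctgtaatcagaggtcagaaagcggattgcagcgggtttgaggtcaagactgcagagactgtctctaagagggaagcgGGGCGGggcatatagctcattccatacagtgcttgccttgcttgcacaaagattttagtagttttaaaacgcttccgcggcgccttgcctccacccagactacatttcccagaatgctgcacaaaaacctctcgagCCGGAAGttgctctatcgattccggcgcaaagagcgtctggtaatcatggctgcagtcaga
Mrps6: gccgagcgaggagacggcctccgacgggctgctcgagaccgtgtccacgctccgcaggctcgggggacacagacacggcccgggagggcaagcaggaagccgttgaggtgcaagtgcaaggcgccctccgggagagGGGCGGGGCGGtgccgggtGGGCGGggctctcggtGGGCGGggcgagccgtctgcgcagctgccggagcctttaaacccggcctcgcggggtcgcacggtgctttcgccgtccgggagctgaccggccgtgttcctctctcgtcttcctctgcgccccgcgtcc
Mrps26: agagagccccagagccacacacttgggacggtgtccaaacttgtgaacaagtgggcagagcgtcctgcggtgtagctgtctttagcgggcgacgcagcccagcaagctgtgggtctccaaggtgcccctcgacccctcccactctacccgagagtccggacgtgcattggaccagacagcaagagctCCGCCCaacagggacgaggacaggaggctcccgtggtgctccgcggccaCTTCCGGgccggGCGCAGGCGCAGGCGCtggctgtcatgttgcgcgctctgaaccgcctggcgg
A match here is a description of the letters, not a measured binding site.

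Libraries held 587118 to 3359875 counts in experiment 2 and 58750 to 1738555 in experiment 1, of which the 69 genes took 0.464 to 1.12% and 0.405 to 1.08%. A naive library of experiment 1 had 58750 counts, 238 of them from these genes, and the result that rests on it is given without it below. Of 7 CD4 T cell markers, 6 are in the tables, and they were detected in every group, summing in experiment 2 to 1802 to 3536 CPM in activated libraries against 4718 to 5236 CPM in naive ones. Libraries were primed on poly(A) tails, and values are CPM, counts scaled to a common library size with TMM in each table on its own. Levels are compared between groups for a gene, not between genes or experiments. In bulk RNA, fewer cells of a type and less RNA per cell cannot be told apart. A gene is said to be higher or lower, or to rise or fall, only at an edgeR quasi-likelihood p under 0.05 after Benjamini-Hochberg adjustment over the whole table, and differences are log2 values ± SE.

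The summed level of the 69 genes was 1.86 times the naive mean at 18 h in the high cultures of experiment 2 and 1.80 times in the low ones. At 18 h it was 10169.6, 11062 and 10419 CPM in the high cultures and 10238, 10396 and 9969 CPM in the low cultures, against 5175, 6041 and 5768 CPM in naive cells. At 30 h it stood at 10843, 11299.6 and 11037 CPM in the high cultures and 9874, 10810.3 and 10807 CPM in the low ones. The concentrations separated at 48 h, with 7497, 7911 and 7641 CPM in the high cultures and 10363, 10059 and 10462 CPM in the low cultures. At 72 h the sum was 6215, 6460.0 and 5702 CPM in the high cultures and 7854 and 8029 CPM in the low ones, so the high range overlapped that of naive cells and the low range lay above it. The large-subunit genes together reached 2.11 times the naive mean at 30 h in the high cultures, and the small-subunit genes 1.68 times. Of the 64 tested genes, 58 had their highest group mean at 18 or 30 h in the high cultures, 25 at 18 h and 33 at 30 h. In the low cultures the highest mean was at 18 h for 24 genes, at 30 h for 19 and at 48 h for 16.

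**Figure D1:**
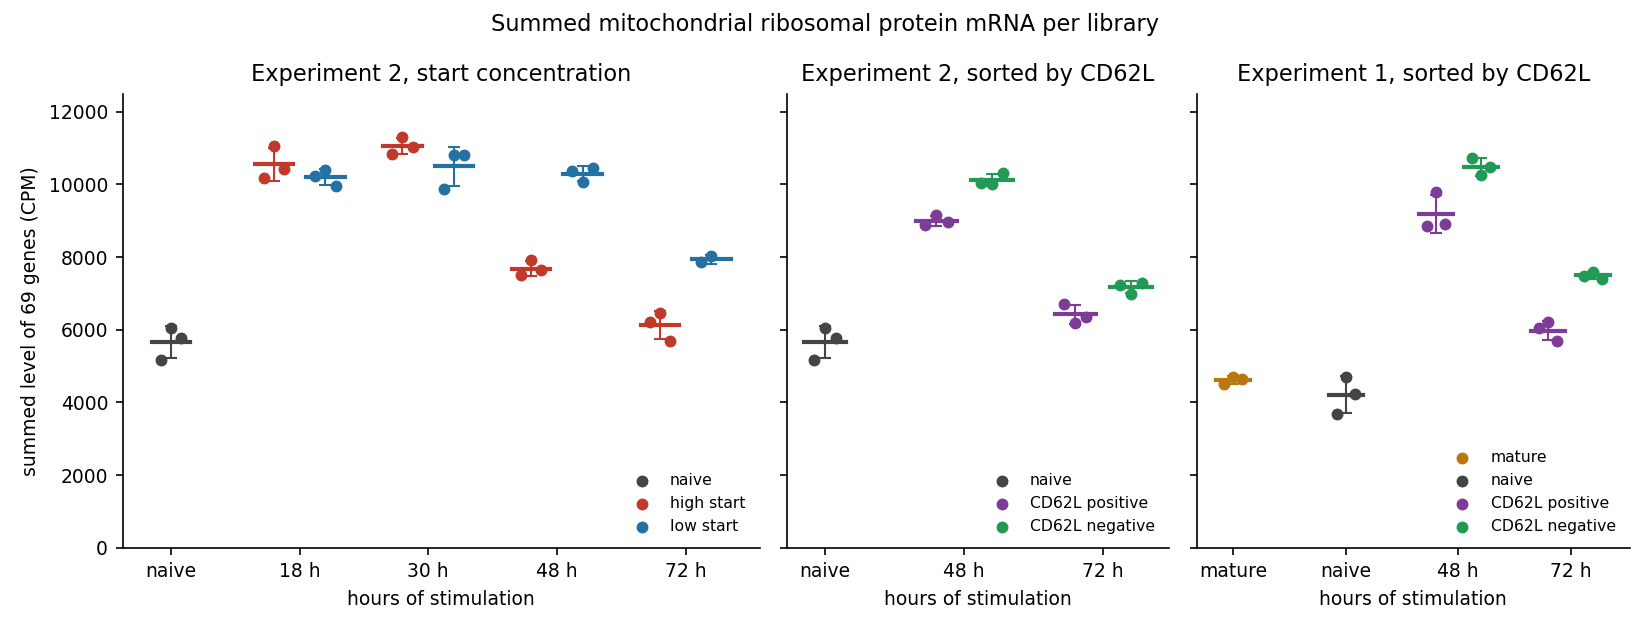
Summed level of the 69 genes in each library (CPM, vertical axis) by hours of stimulation (horizontal axis), with points for libraries, bars for means and whiskers for SD. The high-start cultures lie lower at 48 h than at 30 h, the low-start cultures lower at 72 h than at 48 h, and CD62L-positive cells lie below CD62L-negative cells at both times in both experiments.

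Stimulation for 18 h raised 53 of the 64 tested genes over naive cells and lowered none, over 6 stimulated and 3 naive libraries. Of all 9239 genes tested, 32.3% were higher and 33.6% lower. The median difference of the 64 genes was 1.04, against 0 over all genes. By subunit, 34 of 40 large-subunit genes were higher, with a median of 1.03, and 18 of 23 small-subunit genes, also with a median of 1.03. By origin, 30 of 37 bacterial-type genes rose with a median of 1.02 and 22 of 26 mitochondria-specific ones with a median of 1.09. The 64 genes had passed a filter on low counts, which a gene can pass through its stimulated libraries alone. Among the 57 whose naive mean was itself above the filter's level, 47 rose and none fell. The share of all genes under that restriction was not computed. With no filter, 69 genes were tested and 53 were higher, and Mrpl41 was lower, with 0 counts over the 18 h libraries against 6 counts over the naive ones. Scaling by library totals in place of TMM moved the median of all genes by 0.20.

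Mrpl12, Mrpl20 and Mrpl3 of the large subunit were among the genes that rose. Mrpl12 codes for the stalk protein that recruits translation factors. Its level at 18 h was 462, 493 and 473 CPM in the high cultures and 486, 529.9 and 499 CPM in the low cultures, against 128, 118 and 122 CPM in naive cells. No stimulated library overlapped a naive one, and the difference was 2.00 ± 0.13 (edgeR adjusted p = 5.31e-19). Mrpl20, a bacterial-type rRNA-binding protein that in bacteria joins the subunit early, had 374, 359.6 and 375 CPM in the high cultures and 305, 302 and 269 CPM in the low ones, against 76.4, 67.2 and 56.3 CPM in naive cells. That difference was 2.31 ± 0.13 (edgeR adjusted p = 4.28e-22), a 4.96-fold rise. Mrpl3, whose protein reaches toward the peptidyl transferase centre, had 186, 166 and 212 CPM in the high cultures and 176, 159 and 153 CPM in the low ones, against 29.3, 37.3 and 37.7 CPM in naive cells. It rose by 2.32 ± 0.18 (edgeR adjusted p = 3.4e-16), and for all 3 genes each stimulated library lay above each naive one.

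The largest differences were in genes with few naive counts. Mrpl15, a core protein of the large subunit, had 88 counts over the 6 stimulated libraries, at 7.13 to 22.9 CPM, against 2 counts over the 3 naive ones, at 0 to 1.24 CPM, a depth-scaled ratio of 33.6 with an exact 95% counting interval of 9.04 to 282. Mrps14, of the small-subunit head, had 35 counts against 3, a ratio of 8.92 (2.81 to 45.3). Mrpl50, specific to mitochondria, had 44.7, 44.0 and 37.5 CPM in the high cultures and 31.4, 38.8 and 37.4 CPM in the low ones, against 0, 3.73 and 7.44 CPM in naive cells, and its difference was 3.21 ± 0.34 (edgeR adjusted p = 1.24e-11). Mrps33, another mitochondria-specific gene, rose by 2.50 ± 0.50 (edgeR adjusted p = 2.4e-05). In experiment 1 at 48 h, Mrpl15 and Mrpl50 were higher than in naive cells, and Mrps14 and Mrps33 did not pass. Mrps14 had means there of 79.0 CPM in CD62L-positive and 74.6 CPM in CD62L-negative cells, against 62.0 CPM in naive cells. At 18 h in experiment 2 the groups did not overlap for any of these 4 genes. Naive means were 0.415 CPM for Mrpl15, 0.611 for Mrps14, 3.72 for Mrpl50 and 1.53 for Mrps33, under the filter's level of 6.56 CPM. These genes were thus tested only because of their stimulated libraries, which favours a rise in advance.

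On the small subunit, Mrps6 rose most among well-counted genes. Its product is the counterpart of bacterial S6 on the platform. At 18 h it had 307, 322 and 309 CPM in the high cultures and 327, 336 and 362 CPM in the low ones, against 70.2, 62.2 and 57.9 CPM in naive cells, a difference of 2.37 ± 0.13 (edgeR adjusted p = 2.06e-21). Mrps12, the decoding-centre protein, had 219.9, 268 and 235 CPM in the high cultures and 231, 217 and 235 CPM in the low ones, against 125, 87.7 and 131 CPM in naive cells. It rose by 1.03 ± 0.14 (edgeR adjusted p = 1.1e-08). The large-subunit genes with small-subunit symbols rose too, Mrps30 by 1.13 ± 0.19 (edgeR adjusted p = 1.62e-06) and Mrps18a by 0.69 ± 0.14 (edgeR adjusted p = 2.87e-05). Mrps36, the gene outside the mitoribosome, rose by 2.09 ± 0.76 at 3.73, 11.2 and 2.75 CPM in the high cultures and 8.76, 8.49 and 0 CPM in the low ones, against 0, 0.622 and 3.19 CPM in naive cells (edgeR adjusted p = 0.0147), and these groups overlapped. The naive mean of Mrps36, 1.27 CPM, was also under the filter's level.

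The 11 tested genes that did not pass at 18 h were Mrpl4, Mrpl10, Mrpl19, Mrpl24, Mrpl33, Mrpl53, Mrps9, Mrps21, Mrps25, Mrps26 and Mrps34. Of these, Mrpl4, Mrpl10, Mrpl19, Mrpl33, Mrpl53, Mrps9 and Mrps25 were higher at 48 h than in naive cells in experiment 1. Mrpl24, Mrps26 and Mrps34 did not pass there either, and Mrps21 was not tested there. Mrpl24, the counterpart of bacterial L24, had 178, 163 and 186 CPM in the high cultures and 158, 205 and 149.8 CPM in the low ones, against 147, 187 and 233 CPM in naive cells, a difference of -0.13 ± 0.14 (edgeR adjusted p = 0.408). Mrps26, specific to mitochondria, had 232, 202 and 189.6 CPM in the high cultures and 194, 172 and 177 CPM in the low ones, against 196, 202 and 201 CPM in naive cells. Its difference was -0.04 ± 0.22, so the stimulated values lay on both sides of the naive ones. Mrpl19 had the lowest difference, -0.42 ± 0.42, at a low level in every group. These genes were picked out after their values were seen.

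**Figure D2:**
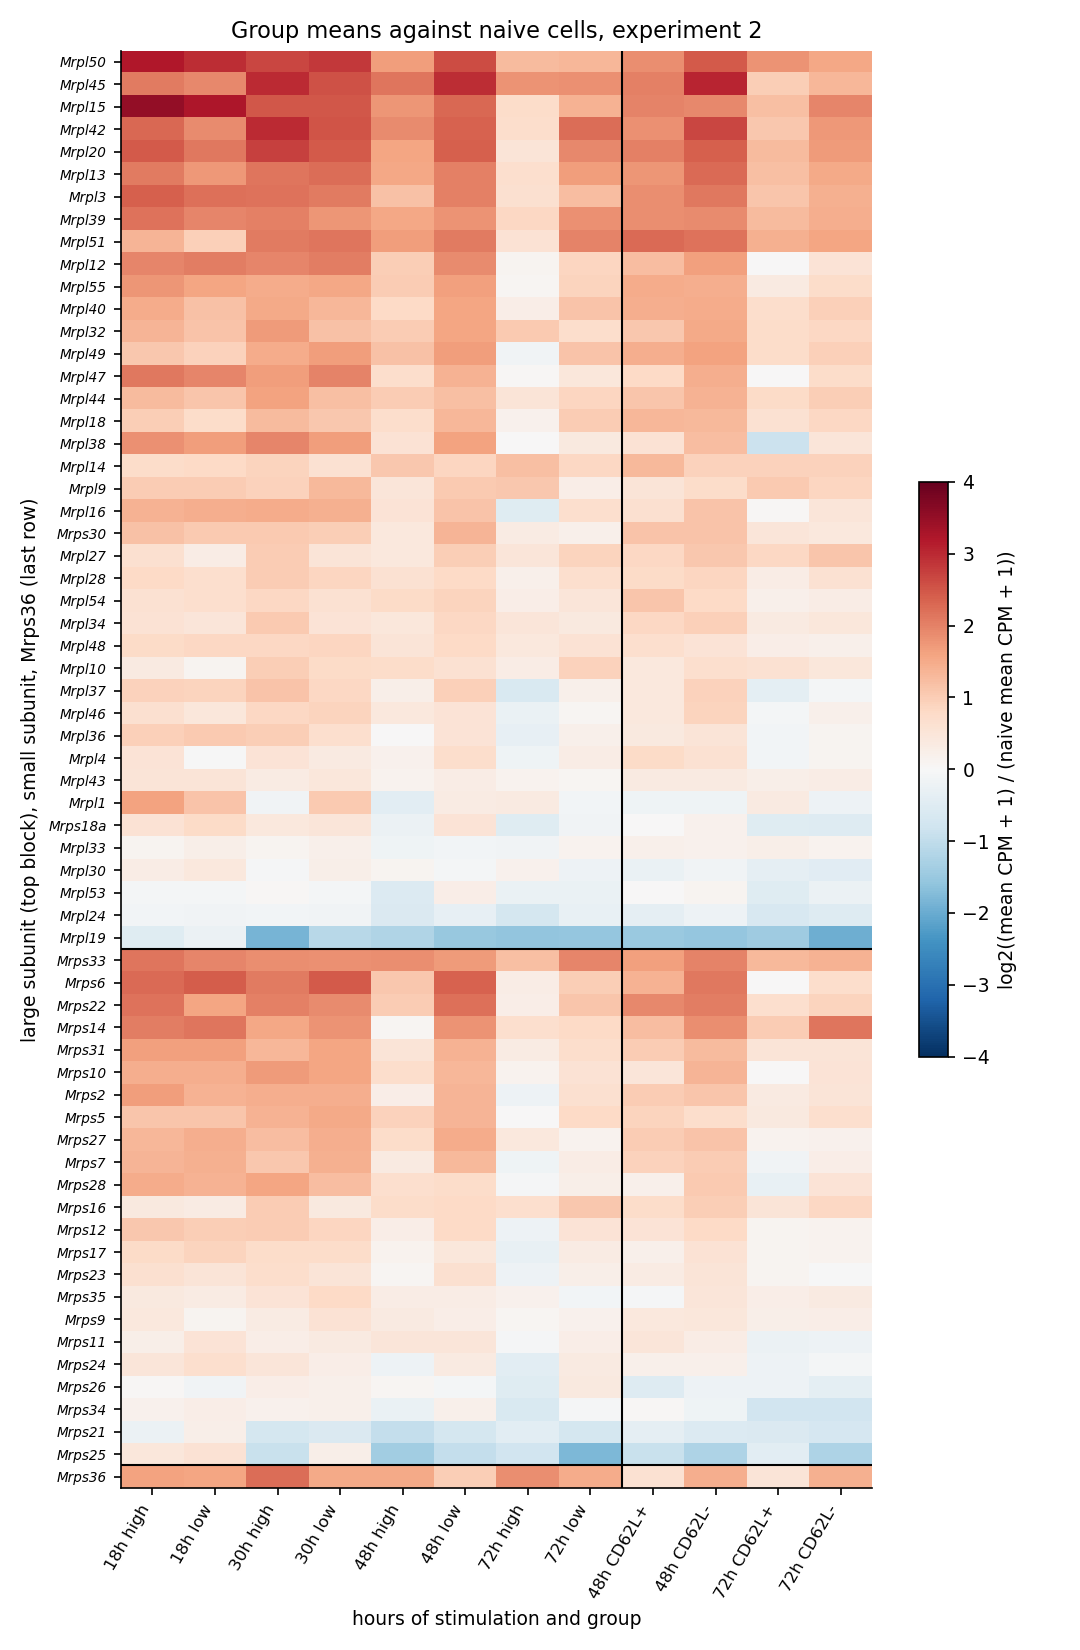
Group means of the 64 tested genes in experiment 2 as log2 ratios to the naive mean, with 1 CPM added to each (colour), for groups in columns and genes in rows, sorted by mean within each subunit. Most rows are red at 18 and 30 h and paler at 48 h in the high cultures, and a few rows such as Mrpl24, Mrpl19 and Mrps21 are near white or blue throughout.

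Other parts of the mitochondrial translation machinery were followed as fixed lists, chosen with earlier results of these data known. Their counts stand beside the 32.3% of all genes that were higher at 18 h than in naive cells and the 33.6% that were lower. At 18 h, 6 of 13 tested translation factor genes were higher and none lower, with a median of 0.60. They included the elongation factors Gfm1 at 2.34 ± 0.20 (edgeR adjusted p = 5.3e-15), Tufm at 1.78 ± 0.17 (edgeR adjusted p = 5.66e-13) and Tsfm at 1.63 ± 0.20 (edgeR adjusted p = 3.44e-10). Of 20 assembly factor genes 7 were higher and 2 lower, with a median of 0.17. Fastkd2, of an RNA-binding protein that acts in mitoribosome assembly, rose by 1.99 ± 0.31 and the 16S rRNA methyltransferase gene Rnmtl1 by 2.04 ± 0.23, whereas Mrm1, another 16S rRNA methyltransferase gene, changed by -1.05 ± 0.28. Of 4 mitoribosomal protein genes with other symbols, Chchd1, Aurkaip1 and Ptcd3 were higher and Ict1, a peptidyl-tRNA hydrolase built into the large subunit, was lower at -0.50 ± 0.13 (edgeR adjusted p = 7.47e-04). Of 16 tRNA synthetase genes 7 were higher and 1 lower, and the smallest p-values were those of Gars at 1.74 ± 0.12 and Kars at 2.23 ± 0.16, whose enzymes also serve the cytosol. Among 8 genes for regulators of mitochondrial genes, Myc rose by 2.32 ± 0.21, and Nrf1 and Esrra changed by -0.99 ± 0.19 and -0.90 ± 0.14, with 3 higher and 4 lower in all. For transcription and upkeep of mitochondrial DNA, 2 of 8 were higher and 2 lower. The mRNAs coded by mitochondrial DNA are not reported here.

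At 30 h, over both concentrations, 12 genes were higher and 5 lower than at 18 h, against 13.9% and 10.6% of all genes, which is close to their shares among these 64. Of these 17 calls, 4 held under every alternative setting and with any one library left out. Mrpl51 rose by 0.94 ± 0.14 (edgeR adjusted p = 1.1e-06), Mrpl45, the large-subunit protein at the tunnel exit that faces the inner membrane, by 0.74 ± 0.13 and Mrpl42 by 0.64 ± 0.13. Mrpl10, which anchors the stalk, rose by 0.64 ± 0.13 after passing no test at 18 h. Lower at 30 h were Mrpl19 at -1.27 ± 0.40, Mrpl1 at -0.99 ± 0.34, Mrpl15 at -0.97 ± 0.32 and Mrps21 at -0.66 ± 0.13. Mrpl12 and Mrps12 did not pass, at 0.01 ± 0.09 and -0.09 ± 0.11. Library titles carry a second number of unstated meaning, which is 1 for every library at 18 h and 2 for every library at 30 h, so that number and the time cannot be told apart. With the number as a covariate 6 genes passed, and the count fell to 10 without replicate 2 of the low concentration at 18 h, to 11 without its replicate 1, and to 11 without replicate 1 of the low concentration at 30 h.

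Few of these genes differed by starting concentration at the early times. At 18 h none of the 64 differed between high and low cultures in edgeR's test, against 1.15% of all genes higher and 0.725% lower. Of the 64, 8 had an unadjusted p under 0.05, as did 1064 of all 9239 genes, which is a similar share. DESeq2 called 1 gene, as did edgeR with library totals, and a fit to these groups alone called 4. How many of all genes these settings called is not given. The median difference was 0.08. At 30 h, 3 genes were higher in the high cultures and none lower, against 4.63% and 3.93% of all genes. These 3 are 4.69% of the 64, close to the share of all genes that were higher. Mrps16, the counterpart of bacterial S16, had 243, 241 and 232 CPM in the high cultures and 129, 163 and 178 CPM in the low ones, a difference of 0.61 ± 0.15 (edgeR adjusted p = 0.00635). Mrpl27 and Mrpl34 differed by 0.50 ± 0.14 and 0.48 ± 0.14. For all 3 genes the groups did not overlap, which adds no separate evidence because the test had picked them on the same values. DESeq2 called 6 genes, 5 higher and 1 lower.

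At 48 h, 35 of the 64 genes were lower in the high cultures and none higher, against 12% of all genes lower and 13.9% higher. The median difference was -0.54, against 0.04 over all genes. In 38 genes every high library lay below every low one, against 16.3% of all genes. Both subunits took part, with 23 of 40 large-subunit and 12 of 23 small-subunit genes lower. The second title number was 2 for all 3 high libraries and 1 of the 3 low ones. Within number 2, the summed level averaged 7683 CPM in the 3 high libraries and was 10363 CPM in the 1 low library. With the number as a covariate 31 genes passed. A fit to these groups alone called 22.

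Mrps6 showed the largest difference among well-counted genes at 48 h. It had 118, 141 and 145 CPM in the high cultures and 321, 314 and 361 CPM in the low cultures. Every high library was below every low one, at -1.30 ± 0.13 (edgeR adjusted p = 5.48e-11). Mrpl12 had 276, 245 and 217 CPM in the high cultures and 441, 452 and 489 CPM in the low cultures, a difference of -0.91 ± 0.13 (edgeR adjusted p = 5.91e-07), again with no overlap. Mrps22, a mitochondria-specific small-subunit protein, had 54.6, 69.9 and 74.2 CPM in the high cultures and 112, 188 and 166 CPM in the low cultures, and differed by -1.21 ± 0.18 (edgeR adjusted p = 9.85e-07). Mrpl38, of the central protuberance, differed by -1.07 ± 0.20 without overlap, at 42.8, 45.6 and 40.5 CPM in the high cultures and 102, 81.1 and 87.2 CPM in the low ones.

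Mrpl3 was also lower at 48 h. It had 57.9, 89.3 and 92.4 CPM in the high cultures and 123, 151 and 158 CPM in the low ones, and differed by -0.83 ± 0.18 (edgeR adjusted p = 2.79e-04). Mrps12, Mrps18a and Mrps30 differed by -0.55 ± 0.15, -0.77 ± 0.16 and -0.93 ± 0.21. Mrps14 had 3 counts in the high cultures against 29 in the low ones, a depth-scaled ratio of 0.126 (exact 95% counting interval 0.0246 to 0.408). Mrps36 did not pass, at 0.72 ± 0.68 with overlapping groups.

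At 72 h, 26 genes were lower in the high cultures and 1 higher, against 13.5% and 13% of all genes, with a median of -0.40. Of the 64 tested genes, 35 were lower at 48 h and 26 at 72 h, and 20 were lower at both, which is 57.1% of the 48 h list and 76.9% of the 72 h list. Whether that is more than lists of these sizes share by themselves was not tested. Mrpl42 had 79.0, 75.7 and 87.9 CPM in the high cultures and 238 and 234 CPM in the low ones, a difference of -1.55 ± 0.21 (edgeR adjusted p = 1.07e-07). Mrpl20 had 90.8, 97.2 and 97.1 CPM in the high cultures and 248 and 262 CPM in the low ones, at -1.43 ± 0.14 (edgeR adjusted p = 4.91e-11). Mrpl51 and Mrpl49, both specific to mitochondria, differed by -1.44 ± 0.23 and -1.32 ± 0.25, and in all 4 genes the groups did not overlap. At 72 h every high library has the second title number 1 and both low libraries have 2, so the number and the concentration cannot be told apart there. The covariate fit, which draws the number's effect from other groups, called 16 genes.

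A single gene was higher in the high cultures at 72 h. Mrpl9, the counterpart of bacterial L9, had 136, 151 and 125 CPM in the high cultures at 72 h and 73.2 and 82.6 CPM in the low ones, a difference of 0.82 ± 0.18 (edgeR adjusted p = 5.3e-04). At 48 h it had been among the 35 lower genes, with 71.4, 89.9 and 109 CPM in the high cultures and 107, 152 and 143 CPM in the low ones. Mrps30, lower at 48 h, did not pass at 72 h, at 0.12 ± 0.24.

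**Figure D3:**
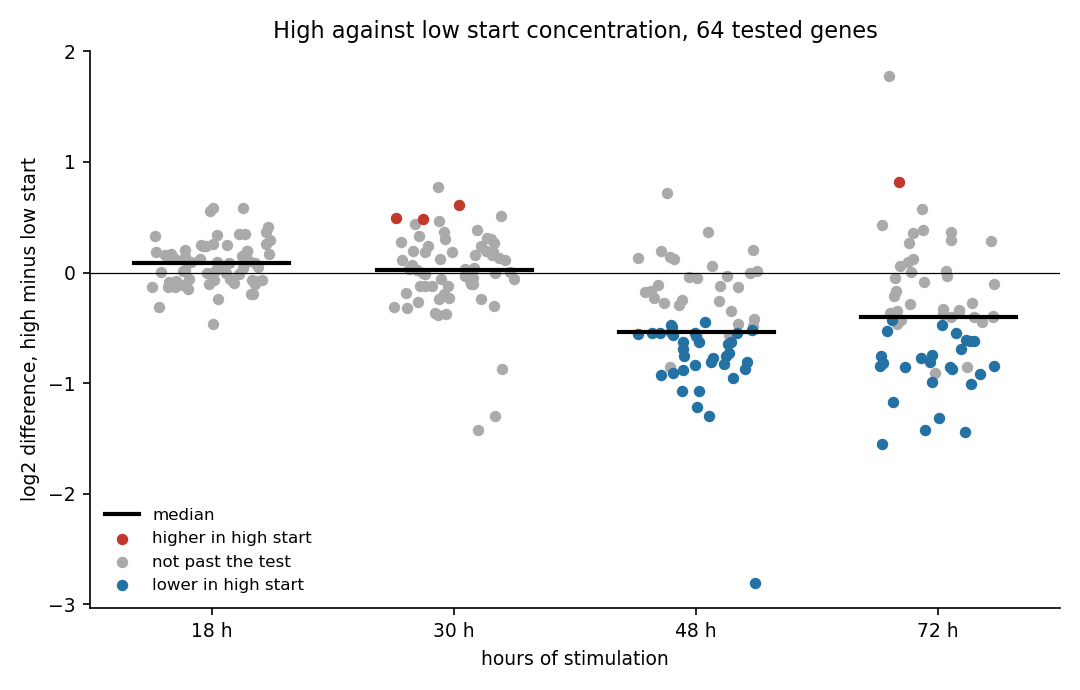
Log2 difference of the high minus the low starting concentration (vertical axis) for each of the 64 tested genes at 18, 30, 48 and 72 h (horizontal axis), coloured by the test, with the median as a black line. The medians lie near 0 at 18 and 30 h and at -0.54 and -0.40 at 48 and 72 h.

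Whether the difference between concentrations changed with time was tested as an interaction over the 4 times. In all, 34 of 64 genes passed, against 30.5% of all genes. The smallest adjusted p was that of Mrpl20 (2.92e-11), followed by Mrpl42 (1.33e-07), Mrps22 (1.11e-06), Mrpl40 (9.17e-06), Mrpl18 (1.11e-05) and Mrps6 (1.66e-05), all from edgeR. Mrpl18 and Mrpl40 code for proteins of the central protuberance. Mrpl20 shows the course: its high-culture libraries were at 459.5, 448 and 449.6 CPM at 30 h against 326, 398 and 374 CPM in the low cultures, and at 208, 199.9 and 199.8 CPM at 48 h against 369, 353 and 345 CPM in the low cultures. It was thus above the low cultures without overlap at 30 h, at 0.30 ± 0.12 (edgeR adjusted p = 0.104, which does not pass), and below them at 48 h, at -0.81 ± 0.12 (edgeR adjusted p = 9.57e-07). Mrpl12, Mrps12, Mrpl3, Mrps18a and Mrps30 also passed, with edgeR adjusted p of 4.46e-04, 0.00205, 0.00148, 0.0451 and 0.00847, and Mrps36 did not (0.85).

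**Figure D4:**
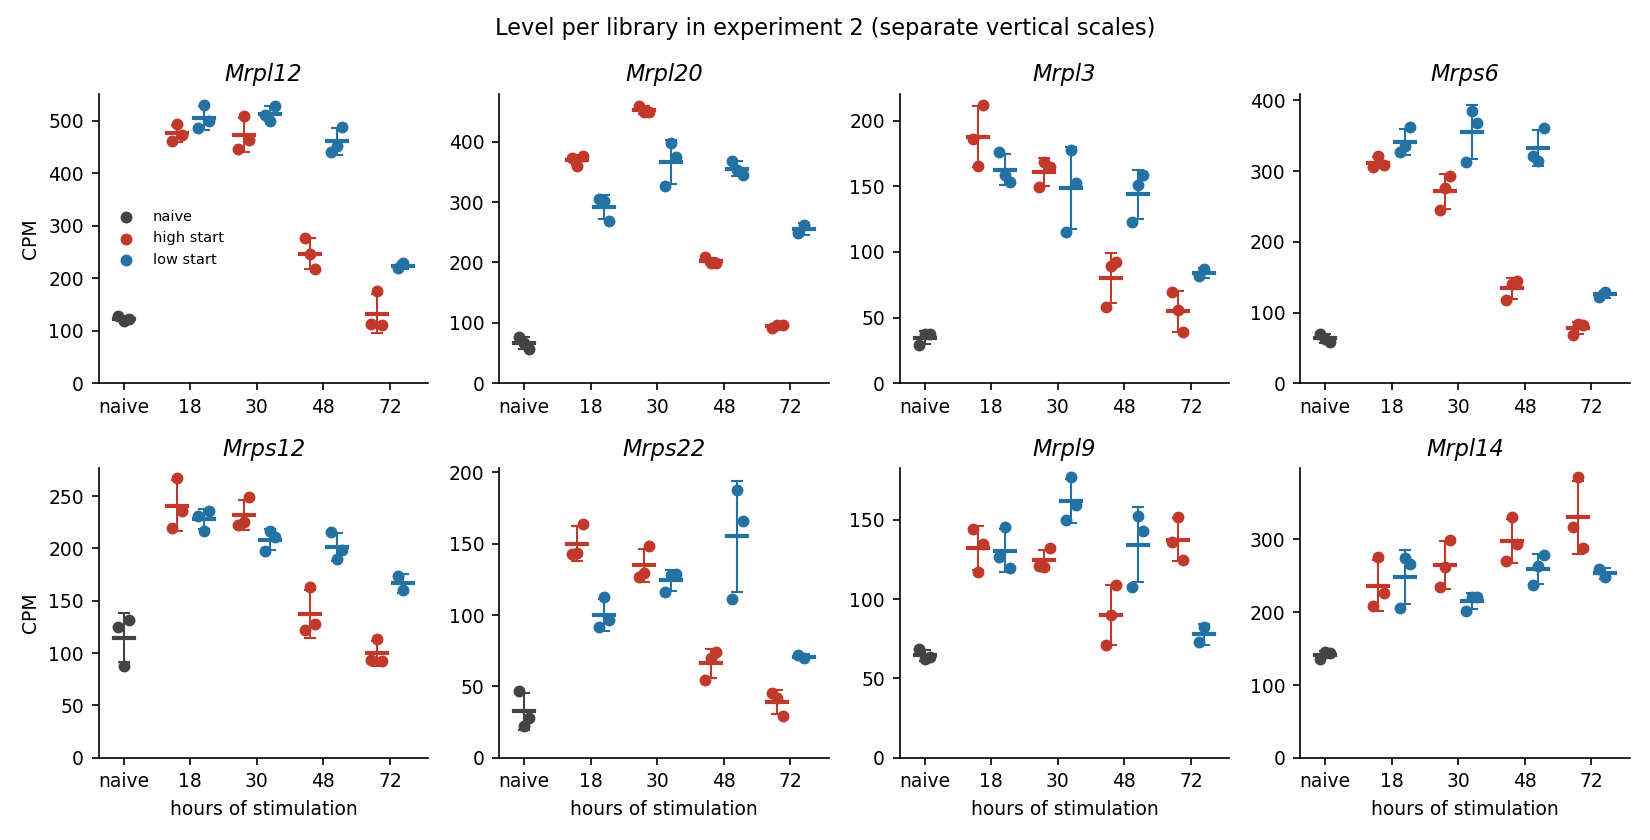
CPM in each library of experiment 2 (vertical axes, from 0 and separate for each gene) by hours of stimulation (horizontal axes) for 8 genes, with means as bars and SD as whiskers. Mrpl12, Mrpl20, Mrpl3, Mrps6, Mrps12 and Mrps22 are lower in high-start than in low-start cultures at 48 and 72 h, Mrpl9 is higher at 72 h, and Mrpl14 stays above naive cells at every time.

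The step between 30 and 48 h carried most of the fall in the high cultures. Between 30 and 48 h, 40 genes fell in the high cultures and none rose, against 13.3% and 16.7% of all genes, with a median of -0.58. All these libraries have the second title number 2. Mrpl38 fell to 42.8, 45.6 and 40.5 CPM at 48 h, against 122, 117 and 99.0 CPM at 30 h, a difference of -1.39 ± 0.19 (edgeR adjusted p = 1.19e-07). Mrpl20 changed by -1.16 ± 0.12, Mrps2 by -1.15 ± 0.25 and Mrpl12 by -0.94 ± 0.13, each without overlap. In the low cultures 2 genes fell in that interval and 1 rose, against 3.55% and 5.73% of all genes, with a median of -0.08. Mrps28 and Mrps35 changed by -0.50 ± 0.17 and -0.50 ± 0.17 and Mrpl27 by 0.46 ± 0.14. Under the alternative settings and with any one library left out this count was 0 to 2, for example 0 with these groups fitted alone and 1 with DESeq2. The 2 intervals were compared only through the test of change with time above.

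Genes fell in both kinds of culture between 48 and 72 h. In the low cultures 28 genes fell and none rose, against 11.6% and 14.2% of all genes, with a median of -0.42. The count was 14 without replicate 1 and 18 without replicate 2 of the low cultures at 72 h, each of which leaves 1 library there that is taken to vary like the other groups. Mrps6 had 122 and 129 CPM at 72 h, against 321, 314 and 361 CPM at 48 h in the low cultures, a difference of -1.40 ± 0.15 (edgeR adjusted p = 5.72e-10). Mrps27, Mrpl50 and Mrpl38 changed by -1.35 ± 0.23, -1.34 ± 0.36 and -1.26 ± 0.23. In the high cultures 23 genes fell and 2 rose, against 12% and 11.5% of all genes, with a median of -0.44. Mrpl49 changed by -1.33 ± 0.23, with 22.7, 12.9 and 22.2 CPM at 72 h, against 57.9, 45.0 and 44.6 CPM at 48 h (edgeR adjusted p = 1.24e-05). The genes that rose were Mrpl9 at 0.60 ± 0.16 and Mrps21, the counterpart of bacterial S21, at 0.54 ± 0.19. In the high cultures the second title number is 1 at 72 h and 2 at 48 h, so it cannot be told apart from the time. In the low cultures it is 2 for both libraries at 72 h, and at 48 h it is 1 for 2 libraries and 2 for 1 library. Within number 2 the summed level of the low cultures averaged 7941 CPM at 72 h and was 10363 CPM in the 1 library at 48 h.

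By 72 h the genes stood at different distances from naive cells. In the low cultures 32 were still higher and 3 lower than in naive cells, against 26.2% and 24.1% of all genes, with a median of 0.55. In the high cultures 18 were higher and 7 lower, against 23.5% and 20% of all genes, with a median of 0.17. The naive libraries are shared by these comparisons. The second title number is 1 for the naive and the high libraries and 2 for both low libraries, so in the low cultures the number and the difference from naive cells cannot be told apart. With the number as a covariate, 27 genes were higher and 2 lower in the low cultures. Mrpl42 was 2.24 ± 0.21 above naive cells in the low cultures (edgeR adjusted p = 7.61e-13), and Mrpl51 2.03 ± 0.23. In the high cultures Mrpl45 was 1.84 ± 0.22 above naive cells, at 55.5, 92.9 and 67.5 CPM against 20.1, 24.9 and 15.4 CPM. Mrpl12 did not pass against naive cells in the high cultures, at 0.11 ± 0.15, and passed in the low cultures, at 0.87 ± 0.15, which does not by itself show that they differ. Lower than naive in the high cultures were Mrpl24 at -0.72 ± 0.16, Mrps34 at -0.60 ± 0.18, Mrpl37 at -0.62 ± 0.19, Mrpl16, Mrps18a, Mrps24 and Mrpl19, the last at 3.31 CPM against 11.9 CPM. With library totals in place of TMM the median of all genes moved by 0.23 in the high cultures and 0.33 in the low ones, and the split became 28 higher and 2 lower in the high cultures and 50 higher and 2 lower in the low ones. The shares of all genes under that scaling are not given, so these splits cannot be set against the shares above. Mrps36 in the high cultures, at 2.30 ± 0.82, rests on values of 6.47 to 8.61 CPM in the high cultures against 0 to 3.19 CPM in naive cells.

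Some genes did not follow the rise and fall. Mrpl14, whose protein lies on the face of the large subunit toward the small one, was at 209, 275 and 226 CPM at 18 h, 234, 262 and 299 CPM at 30 h, 270.3, 331 and 294 CPM at 48 h and 318, 386 and 288 CPM at 72 h in the high cultures. Naive cells had 136, 146 and 143 CPM, so each of these libraries was above each naive one. In experiment 1, at a low level of 0 to 25.1 CPM over its libraries, Mrpl14 fell from 48 to 72 h in the sorted cells. Mrps16 followed it in part in the high cultures, with means of 239 CPM at 30 h and 190 CPM at 72 h, against 118 CPM in naive cells. Its 72 h libraries had 176, 201 and 194 CPM in the high cultures and 235 and 265 CPM in the low ones. Each of these was above the naive libraries, at 94.1, 123 and 139 CPM. Mrpl53, specific to mitochondria, had 61.3, 67.4 and 67.8 CPM in the high cultures and 117, 112 and 116 CPM in the low cultures at 48 h, against 103, 107 and 78.6 CPM in naive cells, so it was lower in the high cultures without having risen at 18 h. These genes were picked out after their values were seen.

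Other genes of the mitochondrial translation machinery were also compared between concentrations, and the lists were not tested against each other. Of all genes, 12% were lower and 13.9% higher in the high cultures at 48 h, and 13.5% were lower and 13% higher at 72 h. At 48 h, 3 of 13 translation factor genes were lower in the high cultures and none higher, namely Gfm1 at -0.82 ± 0.19, Tufm at -0.68 ± 0.17 and Tsfm at -0.52 ± 0.19. Of 20 assembly factor genes 5 were lower and 1 higher. Rnmtl1 changed by -1.31 ± 0.22, Ddx28 by -0.86 ± 0.23 and Fastkd2 by -1.07 ± 0.29, and Mrm1 was higher at 1.17 ± 0.33. Of 16 tRNA synthetase genes 3 were lower, with Yars2 at -1.34 ± 0.23. None of the 8 regulator genes or of the 8 genes for mitochondrial DNA transcription and upkeep passed at 48 h in edgeR's test. Myc stood at 0.30 ± 0.22 (edgeR adjusted p = 0.342) and Nrf1 at -0.22 ± 0.19 (edgeR adjusted p = 0.415). At 72 h Myc was higher in the high cultures, at 1.20 ± 0.26 (edgeR adjusted p = 4.62e-04), as was Esrra at 0.70 ± 0.21. The mitochondrial RNA polymerase gene Polrmt was lower then, at -1.58 ± 0.32 (edgeR adjusted p = 1.51e-04), with Tufm at -0.96 ± 0.21 among 4 lower translation factor genes of 13. For Myc, Esrra and Polrmt, how many genes of their lists passed at 72 h is not given.

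CD62L-positive cells had a lower summed level than CD62L-negative cells. The sum at 48 h in experiment 2 was 8883, 9152 and 8968 CPM in CD62L-positive cells and 10050.0, 10003 and 10314 CPM in CD62L-negative cells. At 72 h it was 6719, 6196 and 6359.7 CPM in CD62L-positive cells and 7238, 6988 and 7285 CPM in CD62L-negative ones, without overlap at either time. At 48 h, 14 genes were lower in CD62L-positive cells and none higher, against 7.28% and 7.23% of all genes, with a median of -0.15. Mrpl45 had 109, 77.5 and 68.9 CPM in CD62L-positive cells and 185, 160.1 and 179 CPM in CD62L-negative cells, a difference of -1.03 ± 0.18 (edgeR adjusted p = 2.55e-05). Mrps10, Mrpl42 and Mrps28 differed by -0.90 ± 0.20, -0.86 ± 0.18 and -0.86 ± 0.17, and Mrpl12 by -0.39 ± 0.13 (edgeR adjusted p = 0.041). This count was 5 without replicate 2 and 8 without replicate 3 of the CD62L-negative cells, and 7 without replicate 1 or replicate 3 of the CD62L-positive cells. It was 9 with these groups fitted alone. With the second title number as a covariate it was 4. Within number 1 the summed level averaged 9001 CPM in the 3 CD62L-positive libraries and was 10050.0 CPM in the 1 CD62L-negative library.

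At 72 h, 4 genes were lower in CD62L-positive cells, against 0.844% of all genes lower and 0.682% higher. Mrpl38 had 9.57, 18.4 and 17.9 CPM in CD62L-positive cells and 46.8, 45.1 and 29.2 CPM in CD62L-negative cells, at -1.39 ± 0.25 (edgeR adjusted p = 4.51e-04). Mrps28, Mrps6 and Mrpl12 differed by -0.84 ± 0.18, -0.70 ± 0.15 and -0.54 ± 0.14, and these 4 genes were also among the 14 at 48 h. The count was 2 without replicate 1 of the CD62L-negative cells and 1 without replicate 3 of the CD62L-positive cells. From 48 to 72 h, over both sorted populations, 42 genes fell and 1 rose, against 18.6% and 19.1% of all genes, with a median of -0.52. Mrps6 had 66.3, 65.1 and 59.9 CPM in CD62L-positive and 93.5, 101 and 115 CPM in CD62L-negative cells at 72 h, against 180.1, 159 and 160.2 and 294, 290.4 and 255 CPM in the same populations at 48 h. Its fall was -1.41 ± 0.10 (edgeR adjusted p = 1.24e-16), and Mrpl9 was the gene that rose, at 0.32 ± 0.11 with overlapping groups (edgeR adjusted p = 0.0174).

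The same sort was made in experiment 1. There, 3 genes were lower in CD62L-positive cells at 48 h and none higher, against 2.46% and 4.05% of all genes. These 3, Mrps6 at -0.50 ± 0.14, Mrpl45 at -0.50 ± 0.14 and Mrpl20 at -0.40 ± 0.13, were all among the 12 lower genes of experiment 2 that were tested in both. The count was 1 without replicate 1 or replicate 3 of the CD62L-negative cells or without replicate 1 of the CD62L-positive cells. At 72 h, 18 genes were lower and none higher, against 9.35% and 10.1% of all genes, with a median of -0.36. Mrps6 had 87.8, 111 and 98.7 CPM in CD62L-positive cells and 185, 178 and 192 CPM in CD62L-negative cells, without overlap, at -0.89 ± 0.16 (edgeR adjusted p = 9.41e-05). Mrpl12 had 220.2, 203 and 212 CPM in CD62L-positive cells and 272, 313 and 339 CPM in CD62L-negative cells, at -0.54 ± 0.13 (edgeR adjusted p = 0.00283). Mrpl4, a bacterial-type protein near the exit tunnel, Mrpl11 of the stalk base and Mrpl3 differed by -0.70 ± 0.17, -0.62 ± 0.20 and -0.47 ± 0.16. Of 57 genes tested in both experiments, 3 were lower in both at 72 h, namely Mrpl12, Mrps6 and Mrps28, which is 17.6% of the 17 in experiment 1 and 75.0% of the 4 in experiment 2. A fit to the compared groups alone called 11 in experiment 1. It called 1392 of all 8030 genes it tested, against 1747 of 8961 in the full fit.

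**Figure D5:**
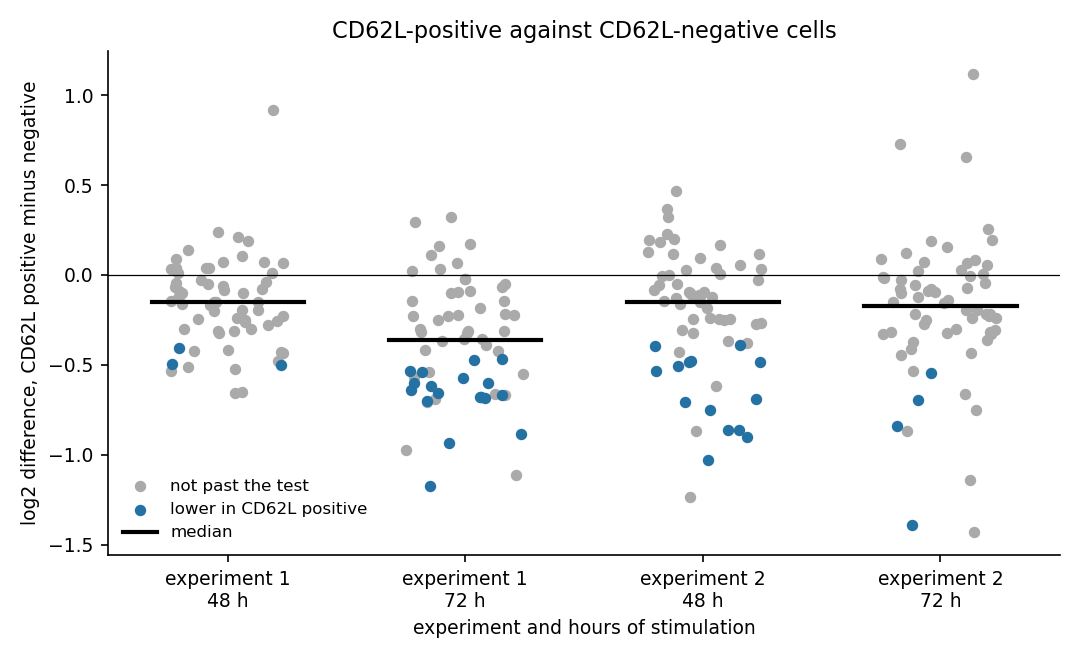
Log2 difference of CD62L-positive minus CD62L-negative cells (vertical axis) for each tested gene at 48 and 72 h in both experiments (horizontal axis), coloured by the test, with the median as a black line. All 4 medians lie below 0, from -0.36 to -0.15, and every gene that passed was lower in CD62L-positive cells.

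The activated cells of experiment 1 also held more of these transcripts than its naive cells. At 48 h the summed level was 8853, 9796 and 8897 CPM in CD62L-positive and 10736, 10245 and 10484 CPM in CD62L-negative cells, against 3694, 4698 and 4244 CPM in naive cells. Of 62 tested genes 53 were higher at 48 h and none lower, against 30.3% and 31.8% of all genes, with a median of 1.29. Of the 50 whose naive mean was itself above the filter's level, 43 were higher, and the share of all genes under that restriction was not computed. The count was 53 without the naive library of 58750 counts, 38 without naive replicate 3 and 52 to 55 without any other library. Under every alternative and with any one library left out, 35 of the 53 calls held. Mrpl12 had 485, 514 and 497 CPM in CD62L-positive and 625, 634 and 599 CPM in CD62L-negative cells, against 202, 144 and 165 CPM in naive cells, a difference of 1.78 ± 0.15 (edgeR adjusted p = 3.1e-12). Mrpl20 and Mrpl3 rose by 2.77 ± 0.20 and 2.49 ± 0.24, and Mrpl11 by 1.08 ± 0.25. The largest rise, in Mrpl35, stands on 2 naive counts against 192, a ratio of 9.33 (exact 95% counting interval 2.55 to 77.6). Its naive mean of 2.07 CPM was under the filter's level of 11.6 CPM in experiment 1. Of 57 genes tested in both experiments, 47 were higher at 18 h in experiment 2 and 49 at 48 h in experiment 1. With most genes passing in each, 42 passed in both, which is 89.4% and 85.7% of these lists, and whether that is more than lists of these sizes share by themselves was not tested.

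In experiment 1 the isolation differs along with activation, since naive and mature cells came from magnetic columns and activated cells from a sorter, so the 2 cannot be told apart. Markers of other cells moved with it. The 6 B-cell markers summed to 5.33 to 19.3 CPM in activated libraries, with 1 of the 6 at 0, against 525 to 1530 CPM in naive and mature libraries with none at 0. The 7 myeloid markers summed to 9.72 to 68.99 CPM in activated libraries against 113.5 to 997.3 CPM in unactivated ones. The 6 CD8 and NK markers summed to 12.3 to 53.6 CPM against 93.1 to 309.8 CPM, and the 7 red-cell and platelet markers to 10.6 to 72.9 CPM against 34.6 to 574.3 CPM. Their part in the experiment 1 differences was not tested. In experiment 2, whose naive cells were sorted too, the B-cell markers summed to 0 to 14.9 CPM in activated libraries against 1.24 to 8.49 CPM in naive ones. The CD8 and NK markers summed there to 13.1 to 96.2 CPM against 33.95 to 37.2 CPM and the myeloid markers to 0 to 42.1 CPM against 7.97 to 13.1 CPM. The red-cell and platelet markers were all at 0 in experiment 2.

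Between the unactivated groups of experiment 1, few genes differed. The summed level was 4502, 4709.6 and 4648 CPM in mature cells and 3694, 4698 and 4244 CPM in naive cells, with overlapping ranges. Of 62 genes 2 were higher in mature cells and none lower, against 7.82% and 8.59% of all genes. Mrps6 had 135, 110.1 and 137 CPM in mature cells and 46.6, 102 and 62.2 CPM in naive cells, at 0.76 ± 0.24 (edgeR adjusted p = 0.0289). Mrpl20 had 102, 106 and 96.3 CPM in mature cells and 77.6, 59.4 and 59.1 CPM in naive cells, at 0.72 ± 0.25 (edgeR adjusted p = 0.0421). DESeq2 called 1 of these genes, and 1331 of all 8961 genes, against 1471 in edgeR's test. Neither edgeR call held without any one of mature replicate 1, mature replicate 3 or naive replicate 3, and 1 held without mature replicate 2 or naive replicate 2.

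From 48 to 72 h most of these genes fell in the sorted cells of experiment 1. There 47 genes fell and none rose, against 25.3% and 27.2% of all genes, with a median of -0.61. Mrps10, of the small-subunit head, changed by -1.18 ± 0.12 (edgeR adjusted p = 3.29e-10), Mrps6 by -1.15 ± 0.11 and Mrpl12 by -1.12 ± 0.09, each without overlap, and Mrps28 and Mrpl38 by -1.48 ± 0.23 and -1.38 ± 0.17. Of 57 genes tested in both experiments, 43 fell in experiment 1 and 39 in experiment 2. With most genes falling in each, 35 fell in both, which is 81.4% and 89.7% of these lists, and this overlap was not tested either. Mrpl9, which rose in experiment 2, had 235, 208 and 215 CPM in CD62L-positive and 184, 181 and 161 CPM in CD62L-negative cells at 72 h, against 163, 216 and 162 and 240.1, 181 and 221 CPM in the same populations at 48 h in experiment 1, and its ranges overlapped.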

How the data were processed

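Per the labels' protocols, polyadenylated RNA of 56 libraries in 19 groups was captured, reverse transcribed from indexed poly(T) primers with molecular identifiers and sequenced. The authors deposited 2 tables of whole-number counts per gene symbol, 1 per experiment. In the submitters' processing notes the aligners STAR 2.5.2b and HISAT 0.1.5, HTSeq 0.9.1, FastQC 0.11.7, bcl2fastq 2.17.1.14 and build mm9 are named, with no role stated. The sources used here do not say which aligner made which table or whether identifiers were collapsed. Genes with near-identical copies may share reads, so processed pseudogene symbols (-ps) were left out.

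Each table was analysed on its own with R 4.3.3 and edgeR 4.0.16 (limma 3.58.1): filterByExpr by group (minimum count 10), TMM, a robust quasi-likelihood fit over all groups of the table, and Benjamini-Hochberg adjustment over all 9239 genes tested in experiment 2 or 8961 in experiment 1, at 0.05. DESeq2 1.42.0 was an alternative. The fits were tested on simulated counts. Ratios resting on 3 or fewer counts have exact conditional 95% counting intervals. Promoters are RefSeq's, of build GRCm38.p6, matched by symbol, and no coordinate of mm9 is used.

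The genes, the lists and the comparisons were chosen with earlier results of these data known. The rule for named genes took, in each comparison, the 4 genes that rose most and the 4 that fell most of those past the test, the 6 smallest adjusted p for the change with time, 9 genes named in every comparison where tested (Mrpl12, Mrps12, Mrpl11, Mrpl3, Mrps18a, Mrps18b, Mrps18c, Mrps30 and Mrps36), and up to 3 genes of each list. Other genes were picked out after their values were seen. Replicate numbers were checked for pairing by the correlation of deviations from group means, and paired only CD62L-positive with CD62L-negative cells at 72 h in experiment 1 among the groups compared.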

Additional observations from a re-analysis of the deposited data

Results flagged for a closer look

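The difference between high and low starting concentrations changed over 18, 30, 48 and 72 h in 34 of the 64 tested genes, by an edgeR test of the change itself. That test compares groups of different cultures at different times, and 30.5% of all genes tested passed it as well. Among the genes named, the adjusted p (edgeR) was 2.92e-11 for Mrpl20, 1.33e-07 for Mrpl42, 1.11e-06 for Mrps22, 9.17e-06 for Mrpl40, 1.11e-05 for Mrpl18 and 1.66e-05 for Mrps6. It was 4.46e-04 for Mrpl12, 0.00205 for Mrps12, 0.00148 for Mrpl3, 0.0451 for Mrps18a and 0.00847 for Mrps30. Mrpl42 differed by 0.41 ± 0.19 at 18 h, 0.46 ± 0.17 at 30 h, -0.47 ± 0.18 at 48 h and -1.55 ± 0.21 at 72 h (high minus low). Mrps22 differed by 0.59 ± 0.19, 0.12 ± 0.18, -1.21 ± 0.18 and -0.85 ± 0.23 at the same times, and Mrpl40 by 0.30 ± 0.15, 0.19 ± 0.15, -0.76 ± 0.15 and -0.87 ± 0.17. Mrps30 was lower at 48 h, at -0.93 ± 0.21, and at 0.12 ± 0.24 at 72 h. With the second title number as a covariate 32 genes passed, and at 72 h that number cannot be told apart from the concentration.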

How the results depend on the processing

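Each comparison was repeated with the compared groups alone, with DESeq2, with DESeq2 size factors or library totals in place of TMM, with no low-count filter, with a replicate block, and in experiment 2 with the second title number as a covariate. Genes called in every one of these and with any one library left out were 48 of 53 at 18 h, 9 of 25 in high and 23 of 35 in low cultures at 72 h, and 35 of 53 at 48 h in experiment 1, all against naive cells. They were 4 of 17 from 18 to 30 h, 27 of 40 in high and 0 of 3 in low cultures from 30 to 48 h, and 11 of 25 in high and 13 of 28 in low cultures from 48 to 72 h. Between concentrations they were 0 of 3 at 30 h, 22 of 35 at 48 h, 14 of 27 at 72 h and 29 of 34 for the change with time. For CD62L they were 4 of 14 at 48 h and 1 of 4 at 72 h in experiment 2, and 0 of 3 and 8 of 18 in experiment 1. They were 38 of 43 and 44 of 47 from 48 to 72 h in sorted cells of experiments 2 and 1, and 0 of 2 between mature and naive cells. With the compared groups alone, counts were 4 (none in the full fit) between concentrations at 18 h, 22 at 48 h, 9 for CD62L at 48 h in experiment 2 and 11 at 72 h in experiment 1. DESeq2 gave 1 between concentrations at 18 h, 6 at 30 h and 1 between mature and naive cells, and library totals gave 1 between concentrations at 18 h. With the second number as a covariate, 6 genes passed for 30 h against 18 h, 16 between concentrations at 72 h and 4 for CD62L at 48 h in experiment 2. From 30 to 48 h in low cultures, the 3 calls (1 higher, 2 lower) became 0 with the groups alone, with no filter and with the second number. They became 1, a higher gene, with DESeq2, with DESeq2 size factors and with the replicate block, and also without replicate 2 at 30 h, so the balance reversed. The cause was not tested for any of these. For experiment 2 the share of all genes called under each alternative setting is not given. A count that changed there cannot be read as particular to these genes.

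Leaving out 1 library at a time gave 10 to 15 calls for 30 h against 18 h, 0 to 2 from 30 to 48 h and 14 to 25 from 48 to 72 h in low cultures, 5 to 14 and 1 to 4 for CD62L at 48 and 72 h in experiment 2, 1 to 4 at 48 h in experiment 1, and 0 to 2 between mature and naive cells. For 48 h against naive cells in experiment 1 it gave 38 to 55.

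Titles share replicate numbers between groups, but the pairing check found same-numbered libraries deviating together in only 1 of 15 pairs of groups in experiment 1, CD62L-positive and CD62L-negative cells at 72 h, and 1 of 78 in experiment 2. With the replicate block that 72 h count stayed at 18, and no count but that from 30 to 48 h in low cultures moved by over 1.5 times. The block shares each replicate number's effect over all groups of an experiment, so it cannot decide what pairing within 1 pair of groups does.

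Depth limits the genes at few counts: at 587118 counts, the smallest library of experiment 2, and 58750, the smallest of experiment 1, a gene at a few CPM has at most a few counts, and intervals given for ratios cover counting error only. Libraries of a group differed by more than counting noise, with a chi-square per degree of freedom of 1.28 to 15.0. That does not show whether they were technical repeats, and each was kept as a separate library.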

Other observations

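Other genes of mitochondrial translation also fell between 48 and 72 h in the sorted cells of experiment 2. Of 13 tested translation factor genes 7 were lower at 72 h and none higher, and of 20 assembly factor genes 8 were lower and none higher. Of 16 tRNA synthetase genes 9 were lower and none higher, against 18.6% of all genes lower and 19.1% higher. Tufm, the elongation factor Tu gene, changed by -0.79 ± 0.13 (edgeR adjusted p = 2.33e-06), and Gfm1 by -0.74 ± 0.14 (edgeR adjusted p = 2.56e-05). In CD62L-positive against CD62L-negative cells at 72 h in experiment 1, Tsfm was lower, at -1.15 ± 0.24 (edgeR adjusted p = 6.82e-04) as was Chchd1, at -0.70 ± 0.19 (edgeR adjusted p = 0.00808). Of all genes, 9.35% were lower and 10.1% higher there. How many genes of the lists of Tsfm and Chchd1 passed is not given, so these 2 do not stand for their lists.

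A few genes had very different levels in the tables, which were made and scaled separately, so these values are set side by side without a test. Mrpl11 was at 0 to 3.00 CPM over the libraries of experiment 2 and at 39.3 to 136 CPM over those of experiment 1. Mrps14 was at 0 to 8.92 CPM in experiment 2 and 32.7 to 111 CPM in experiment 1. Mrpl19 was at 0 to 17.0 CPM in experiment 2, lower at 72 h in high cultures than in naive cells, and in experiment 1 at 185, 184 and 203 CPM in CD62L-positive and 208, 202 and 181 CPM in CD62L-negative cells at 48 h, against 62.1, 50.9 and 87.1 CPM in naive cells. Mrps21 and Mrpl14 ran the other way, at 105 to 317 and 136 to 386 CPM in experiment 2 and at 0 to 3.85 and 0 to 25.1 CPM in experiment 1. The annotation behind each table was not compared here.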
